A study of Caenorhabditis elegans with 63 samples.

Results

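The miR-64 family of Caenorhabditis elegans was followed through every group of a small RNA sequencing study of drsh-1, the worm gene for Drosha. Its members are the 5 hairpins mir-63, mir-64, mir-65, mir-66 and mir-229, taken by name from the 2 deposited count tables, out of 139 hairpins in all. Each hairpin has a 5p and a 3p arm, so the family makes up 10 of the 276 arms in each table, and all 10 passed the filter on low counts in every fit. The study holds 63 libraries of whole worms grown at 20 °C, in 23 groups. With the NEBNext small RNA kit, 18 libraries covered wild type, drsh-1 (cdb328) I and drsh-1 (cdb330) I at the L4 larval stage and as Adults (n = 3 each). The same kit gave 4 Adult libraries of the doubly tagged strain drsh-1::gfp;tdp-1::mScarlet, without and with the added genotype term drsh-1(null) (n = 2 each). A bias-minimized protocol, whose adaptors carry degenerate bases, was used for Adults of wild type and of both alleles (n = 3 each).

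The other 32 libraries were also bias-minimized and form what is called the mir-80 series here. It pairs intact drsh-1 with mutant drsh-1 on wild-type mir-80 and on the mir-80 alleles cdb493, cdb494, cdb495, cdb496 and cdb530 (n = 2 or n = 3 per group). The mutant is labelled drsh-1(cdb263 cdb328) I, except on mir-80(cdb530) III, where it is drsh-1(cdb328) I. The labels give no stage for this series and do not say what sequence any allele changes. They also do not say that replicates are separate cultures, so the p-values below measure only the spread between these libraries. Reads of miRNAs do not measure drsh-1 mRNA, so the mutated gene itself could not be checked.

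A miRNA is made in steps. Drosha, in the Microprocessor complex, cuts the hairpin out of the primary transcript; Dicer then trims it to a short duplex, and one strand is loaded into an Argonaute protein while the other, called the star strand, is mostly lost. Target choice depends on the seed near the 5′ end of the loaded strand, and the miR-64 family is a group of worm miRNAs with a shared seed. Mutants of mir-229, mir-64, mir-65 and mir-66 have been studied in worms for their response to heat stress.

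Of the 5 genes, 4 lie together. On the WBcel235 annotation, used here for position only because the sources do not name the build behind the counts, mir-229 (WBGene00003322) lies at III:2172452-2172566, mir-64 (WBGene00003292) at III:2172848-2172957, mir-65 (WBGene00003293) at III:2173002-2173101 and mir-66 (WBGene00003294) at III:2173108-2173206, all on the plus strand. All 4 fall in a single intron of 6429 bases (III:2168149-2174577) of gcn-1, the worm relative of the translation regulator GCN1, on the same strand as that gene. The gaps between them are 281, 44 and 6 bases, and the cluster spans 755 bases. The fifth gene, mir-63 (WBGene00003291), is on another chromosome, at X:17598765-17598868 on the minus strand, in an intergenic position 1619 bases from lec-9. The mature 5p arms of mir-64 and mir-65 are nearly identical in sequence, and the sources do not say how reads that fit both were divided. Single values for these 2 arms and their ratio are uncertain for that reason, and their sum is given beside them.

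NEBNext libraries held 1891780 to 5565918 miRNA reads, bias-minimized Adult libraries 578859 to 2585561, and libraries of the mir-80 series 155736 to 2355231. Reads of 10 plant spike-ins took 13.3% to 36.1%, 38.4% to 58.8% and 37.6% to 63.3% of the reads in these 3 sets. Levels are given as CPM, the reads of an arm scaled to the miRNA total of its library, after normalization by the trimmed mean of M-values (TMM), so that every level and fold change is relative to the other miRNAs of the library. Each fold change is a log2 value with its standard error (SE) from edgeR's quasi-likelihood test, and a change is called at a Benjamini-Hochberg adjusted p under 0.05 over all arms tested. Over all arms the fitted biological coefficient of variation was 0.126 with NEBNext, 0.571 over the mir-80 series and 0.603 over the bias-minimized Adults. All 57 pairs of libraries from one group differed by more than sampling noise (lowest chi-square per degree of freedom 17.4), so each library counts as 1 sample.

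In wild-type worms the family took 8.61% of miRNA reads at L4, 8.61% in NEBNext Adults and 8.44% in bias-minimized Adults (means, n = 3 each). The abundant strand was the 5p arm in mir-64, mir-65, mir-66 and mir-229, and the 3p arm in mir-63. In NEBNext Adults, miR-65-5p had 39116, 40362 and 34810 CPM and miR-64-5p had 28836, 32640 and 28957 CPM, without overlap. Next came miR-66-5p with 25537, 26558 and 25948 CPM, below both. Far lower were miR-63-3p with 3699, 3687 and 3704 CPM and miR-229-5p with 2276, 2931 and 2894 CPM, which did not overlap either. At L4 some neighbours in this order could not be separated: miR-64-5p (22650, 21196 and 24806 CPM) overlapped miR-65-5p (22716, 21717 and 26359 CPM), and miR-63-3p (2267, 2439 and 2549 CPM) overlapped miR-229-5p (2517, 2163 and 2572 CPM).

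**Figure D1:**
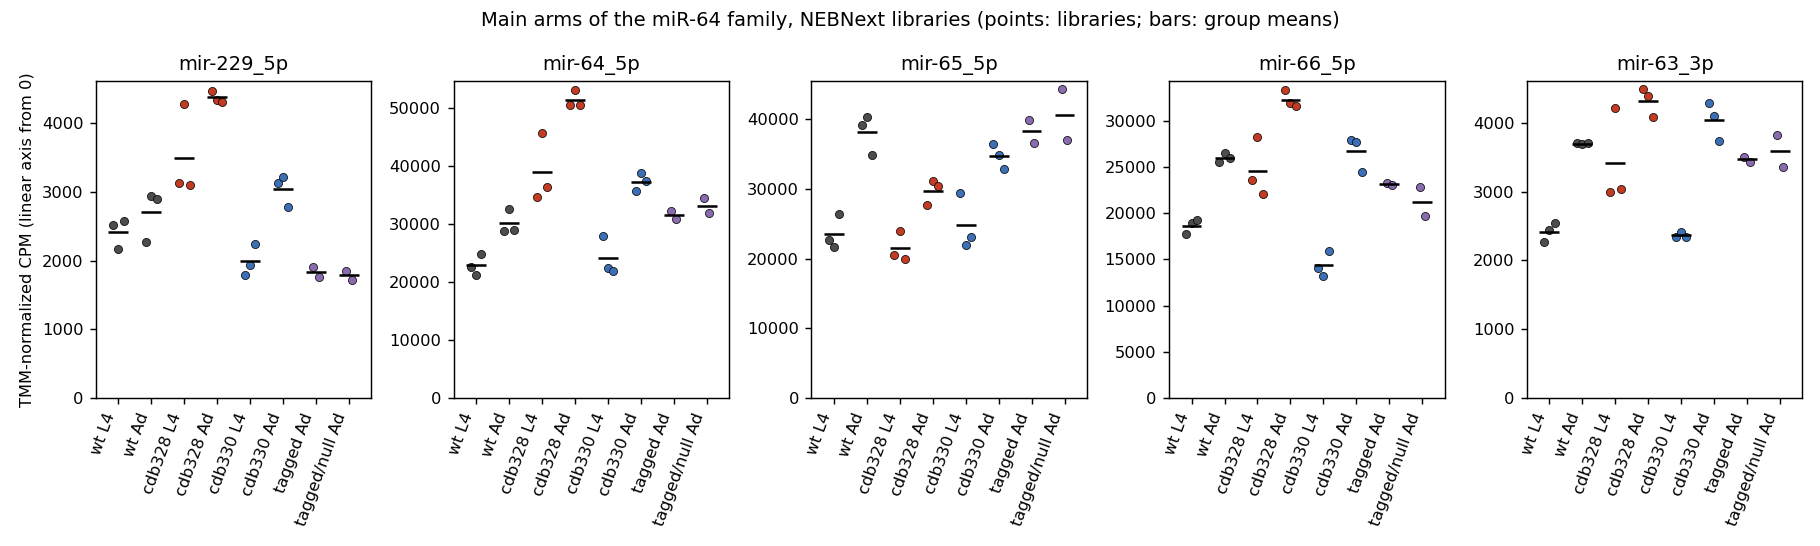
TMM-normalized CPM (linear axis) of the 5 main arms in each NEBNext library, 1 point per library, by group. The 6 cdb328 libraries lie above wild type of the same stage for miR-64-5p, miR-66-5p and miR-229-5p, while miR-65-5p lies lower in cdb328 Adults (27723 to 31100 CPM against 34810 to 40362); these directions are relative to other miRNAs, and for the 3 higher arms they turn when libraries are scaled on the mirtron mir-62.

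The order of the members depended on the library protocol. In wild-type Adults, miR-229-5p averaged 2700 ± 368 CPM (SD, n = 3) with NEBNext and 24540 ± 2092 CPM with the bias-minimized adaptors, 9.09-fold more. The opposite held for miR-65-5p, which was 2.57-fold lower with the bias-minimized adaptors (14809 ± 2255 against 38096 ± 2913 CPM). The other main arms moved less: miR-64-5p went from 30144 to 24771 CPM, miR-66-5p from 26014.5 to 38329 CPM and miR-63-3p from 3696 to 3730 CPM. With the bias-minimized adaptors the order was therefore miR-66-5p first (44085, 39191 and 31710 CPM), then miR-64-5p (24918, 26071 and 23325 CPM) and miR-229-5p (26603, 24596 and 22421 CPM), which overlapped, then miR-65-5p (13048, 14029 and 17350 CPM) and miR-63-3p (4042, 4114 and 3035 CPM). The tables were normalized separately, so these differences between protocols are given as values with no test, and the comparisons that follow stay within a protocol.

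**Figure D2:**
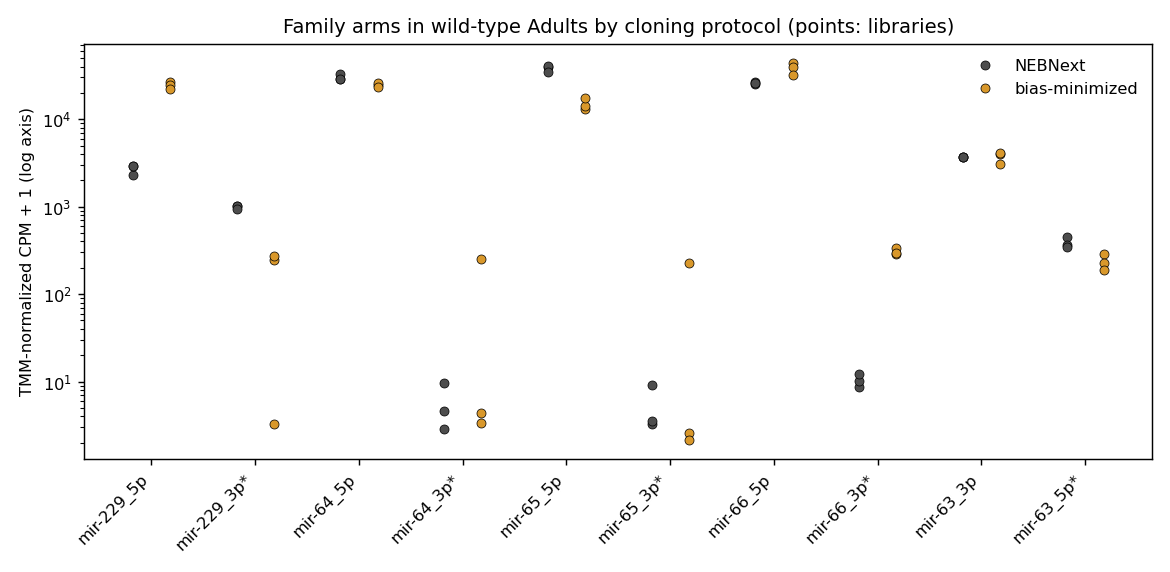
CPM + 1 (log axis) of the 10 family arms in the wild-type Adult libraries, NEBNext beside bias-minimized, 1 point per library (n = 3 each). The largest gap among the main arms is that of miR-229-5p (2700 against 24540 CPM), and the star arm miR-66-3p goes from 9.37 to 307 CPM.

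The clearest pattern in the family was the balance between the neighbours mir-64 and mir-65. The ratio of miR-64-5p to miR-65-5p reads is the same whatever scaling is used for a library. It was picked after its values were seen and is described without a test. The ratio may also depend on how reads that fit both arms were divided, which is not stated. In wild type it was 0.997, 0.976 and 0.941 at L4 and 0.737, 0.809 and 0.832 in Adults with NEBNext. In cdb328 it was 1.69, 1.90 and 1.83 at L4 and 1.82, 1.71 and 1.66 in Adults. Every cdb328 library thus stood above every wild-type library, by 1.86-fold between the geometric means at L4 and 2.18-fold in Adults. With the bias-minimized adaptors all ratios were higher, but the step was of like size: 1.91, 1.86 and 1.34 in wild type against 3.53, 3.18 and 3.47 in cdb328, or 2.01-fold between the geometric means. Names of the NEBNext and bias-minimized Adult libraries are alike, and the labels do not say whether both were made from the same RNA, so these 2 Adult comparisons may not be independent.

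The mir-80 series gave the same separation in other worms. In its 16 libraries with intact drsh-1 the ratio ran from 1.64 to 2.33 (median 1.94), and in its 16 libraries with mutant drsh-1 from 2.44 to 4.03 (median 3.31). No library of one set reached the other, on wild-type mir-80 or on any of the 5 mir-80 alleles. The mutant library nearest to the intact range was from the cdb496 group, whose 3 values were 3.38, 3.19 and 2.44.

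The cdb330 allele repeated this only in part, in NEBNext Adults. Its ratio was 0.949, 1.02 and 0.947 at L4, overlapping wild type. In NEBNext Adults it was 0.979, 1.11 and 1.14, above the wild-type Adults by 0.44 on the log2 scale but below every cdb328 library. In bias-minimized Adults it was 1.86, 1.90 and 2.15 and overlapped wild type. The tagged strain had 0.806 and 0.841, and the tagged strain over the null allele 0.778 and 0.864. Each set overlapped the wild-type Adults.

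**Figure D3:**
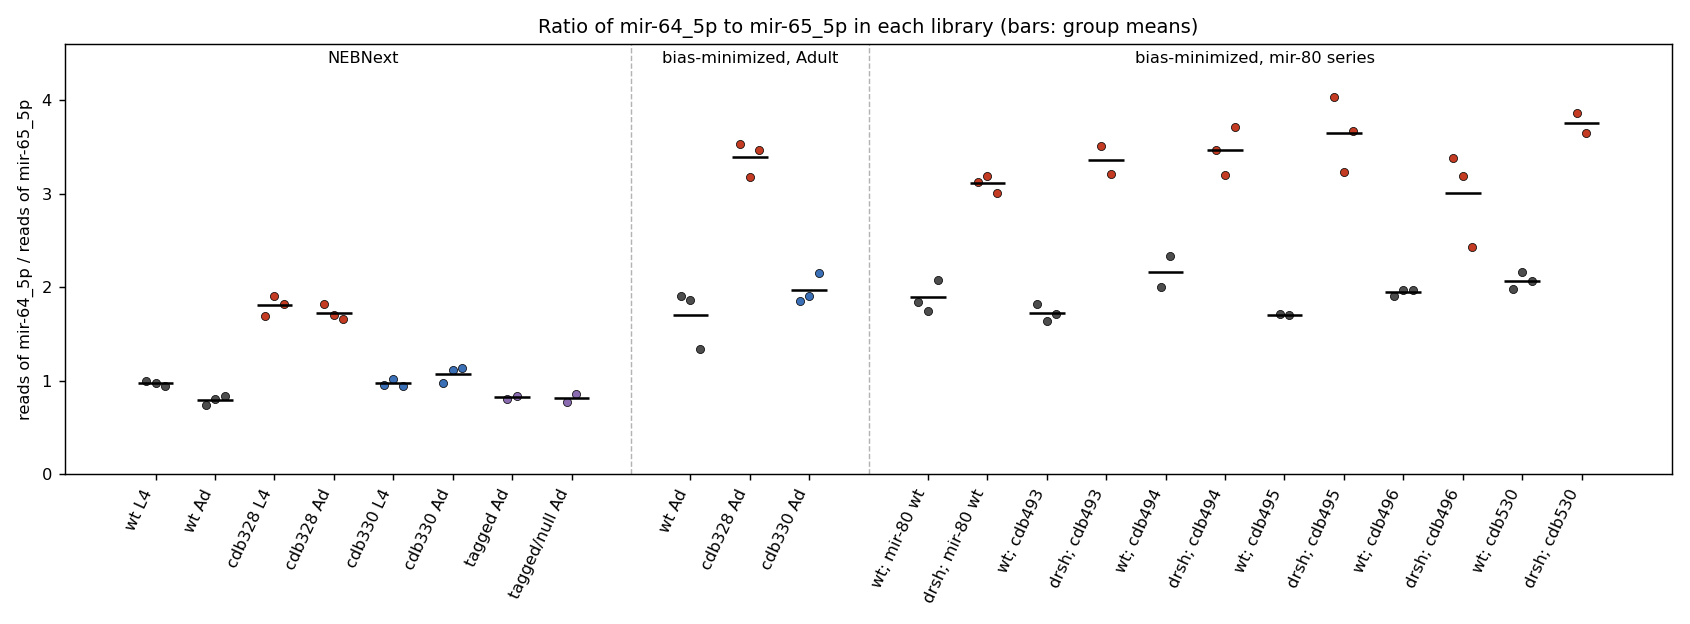
Ratio of miR-64-5p to miR-65-5p reads in each of the 63 libraries, 1 point per library with a bar at each group's mean, over the 23 groups. How reads that fit both arms were divided is not stated. Within NEBNext the 12 libraries of wild type and cdb330 run from 0.737 to 1.14 and the 6 of cdb328 from 1.66 to 1.90; in the mir-80 series the 16 libraries with intact drsh-1 end at 2.33 and the 16 with the mutant start at 2.44.

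Within the cluster, miR-65-5p lost share to its neighbours. Of the summed reads of the 4 clustered 5p arms, miR-65-5p took 34.9% in wild type and 24.3% in cdb328 at L4, 39.3% and 25.3% in NEBNext Adults, and 14.6% and 8.20% in bias-minimized Adults (means, n = 3 each). In the mir-80 series its share ran from 11.1% to 16.5% with intact drsh-1 and from 7.21% to 12.0% with mutant drsh-1. The share did not overlap between mutant and control in any of the 9 comparisons of cdb328, or of the alleles that carry it, with the matching control. The share of miR-64-5p rose from 33.9% to 43.9% at L4, from 31.1% to 43.6% in NEBNext Adults and from 24.2% to 27.8% in bias-minimized Adults, without overlap in 8 of the 9; the exception was the cdb496 background. By contrast, the share of miR-66-5p overlapped in 8 of the 9 (L4 means 27.6% and 27.8%, NEBNext Adult means 26.9% and 27.4%). The share of miR-229-5p is not given here. In bias-minimized Adults miR-229-5p had the largest log2 rise of the cluster in cdb328, 0.89 against 0.78 for miR-64-5p. At L4 and in NEBNext Adults the largest was that of miR-64-5p, 0.77 in both. For cdb330 the share of miR-65-5p was 37.9% at L4, 34.1% in NEBNext Adults and 14.1% in bias-minimized Adults.

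Tested one arm at a time against wild type at L4, cdb328 had 5 of the 10 family arms higher and 0 lower, where 22.5% of all 209 arms tested were higher and 29.2% lower. The family's share of miRNA reads was 10.9%, against 8.61% in wild type, with no overlap. The median log2 fold change of the 10 arms was 0.34, against -0.11 over all arms. In NEBNext Adults 3 family arms were higher and 1 lower (background 21.5% and 31.6%), with a share of 10.6% to 11.3% and a median of 0.14 against -0.0053. In bias-minimized Adults 5 were higher and 0 lower (background 21% and 24.2%), with a share of 11.6% and a median of 0.26 against -0.067. Where edgeR called 0 family arms lower, at L4 and in bias-minimized Adults, there were also 0 at an unadjusted p under 0.05 and 0 by DESeq2.

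miR-64-5p, the most abundant family arm in NEBNext cdb328 worms, rose by nearly the same amount in all 3. At L4 it went from 22650, 21196 and 24806 CPM in wild type to 34736, 45648 and 36446 CPM in cdb328. In NEBNext Adults it went from 28836, 32640 and 28957 to 50470, 53047 and 50432 CPM, and in bias-minimized Adults from 24918, 26071 and 23325 to 42928, 39894 and 44825 CPM. The groups did not overlap in any of the 3. It rose by 0.77 ± 0.11 at L4 (edgeR adjusted p 3.32e-06), by 0.77 ± 0.11 in NEBNext Adults (3.49e-06) and by 0.78 ± 0.07 in bias-minimized Adults (0.000181). Every call stayed when any 1 library was left out, but with libraries scaled on mir-62 the estimates turned to -0.19, -0.81 and -0.15.

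miR-65-5p, from the hairpin next to mir-64, went the other way. At L4 it had 22716, 21717 and 26359 CPM in wild type and 20496, 23988 and 19966 CPM in cdb328, which overlapped (-0.14 ± 0.12, edgeR adjusted p 0.337). In NEBNext Adults it fell from 39116, 40362 and 34810 to 27723, 31100 and 30435 CPM, without overlap (-0.36 ± 0.12, adjusted p 0.0116). In bias-minimized Adults its values of 13048, 14029 and 17350 CPM in wild type and 12172, 12556 and 12922 CPM in cdb328 did not overlap but did not pass the test (-0.24 ± 0.10, adjusted p 0.0996). The fall in NEBNext Adults was lost in 2 of the 6 fits that left out a library, the second wild-type or the first cdb328 Adult (highest adjusted p 0.0598), and without the first bias-minimized wild-type library that comparison passed. With the reads of both 5p arms summed, the pair was higher by 0.38 at L4 (edgeR adjusted p 0.00688) and by 0.48 in bias-minimized Adults (0.000606), and by 0.25 in NEBNext Adults, where it did not pass (0.0668).

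miR-66-5p, the last hairpin of the cluster, rose in all 3. It went from 17711, 18911 and 19269 to 23561, 28238 and 22020 CPM at L4, and from 25537, 26558 and 25948 to 33284, 31930 and 31641 CPM in NEBNext Adults. In bias-minimized Adults it went from 44085, 39191 and 31710 to 53698, 52531 and 51443 CPM. None of these groups overlapped. The changes were 0.40 ± 0.10 (edgeR adjusted p 0.00217), 0.31 ± 0.10 (0.0133) and 0.46 ± 0.11 (0.0135), and the second was lost without the first cdb328 Adult (0.0509). On the spike-in scale the last of these was -0.031, and on the mir-62 scale all 3 were negative (-0.56, -1.28 and -0.47).

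miR-229-5p, the first hairpin of the cluster, also rose in all 3, although its level differed so much between protocols. In NEBNext it went from 2517, 2163 and 2572 to 3123, 4278 and 3091 CPM at L4 and from 2276, 2931 and 2894 to 4471, 4337 and 4302 CPM in Adults. In bias-minimized Adults it went from 26603, 24596 and 22421 to 45497, 44325 and 46653 CPM. All 3 pairs of groups were apart. The changes were 0.53 ± 0.13 (edgeR adjusted p 0.00136), 0.69 ± 0.13 (7.46e-05) and 0.89 ± 0.08 (0.000163), and on the mir-62 scale they were -0.43, -0.87 and -0.036.

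mir-63, the member outside the cluster, moved with it. At L4 miR-63-3p went from 2267, 2439 and 2549 to 2987, 4219 and 3032 CPM (0.50 ± 0.11, edgeR adjusted p 0.000784). In bias-minimized Adults it went from 4042, 4114 and 3035 to 5792, 5015 and 5219 CPM (0.52 ± 0.13, adjusted p 0.0129). In NEBNext Adults it had 3699, 3687 and 3704 CPM in wild type and 4494, 4387 and 4077 CPM in cdb328, apart but not past the threshold (0.22 ± 0.11, edgeR adjusted p 0.104). Its star arm miR-63-5p rose at L4 (0.42 ± 0.14, adjusted p 0.0148) and in bias-minimized Adults (0.67 ± 0.17, adjusted p 0.0135); the L4 call was lost without the second cdb328 library (adjusted p 0.0718). On the mir-62 scale miR-63-3p was at -0.47 at L4, -0.40 in bias-minimized Adults and -1.37 in NEBNext Adults.

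The mir-62 scale matters for these directions. mir-62 is a mirtron, a miRNA cut from its transcript by splicing without Drosha, and its 3p arm was itself called higher in cdb328, by 0.94 at L4, 1.53 in NEBNext Adults and 0.93 in bias-minimized Adults. Scaling on it moved the median of all arms by -0.95, -1.57 and -0.93, and scaling on the spike-ins by -0.14, -0.15 and -0.48. A rise of a family arm is therefore a rise against most other miRNAs and not against mir-62. The ratio of miR-64-5p to miR-65-5p does not depend on scaling. It may depend on how reads that fit both arms were divided. Markers of other tissues moved too in cdb328 at L4: 1 of 3 neuronal arms (of lsy-6, mir-124 and mir-791) was called higher, with summed levels of 45.6 to 50.1 CPM against 21.5 to 30.1 in wild type, as was 1 of 2 arms of the muscle miRNA mir-1, while the intestinal mir-60 had 1692 to 2466 CPM against 1740 to 1833. In NEBNext Adults 1 of 3 neuronal arms (20.5 to 31.8 CPM against 12.9 to 17.0) and 1 of 2 muscle arms were higher and 0 of 2 intestinal ones (2187 to 2222 CPM against 2017 to 2479). In bias-minimized Adults the 1 neuronal arm tested was higher (1.12; summed markers 1913 to 2382 CPM against 823 to 1154), as was 1 of 2 intestinal arms, miR-60-3p (0.44, edgeR adjusted p 0.0224; 30023 to 34756 CPM against 21470 to 27267), and 0 of 2 muscle arms. Their part in the family's values was not tested. In whole worms, fewer cells that make a miRNA and less of it per cell cannot be told apart.

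**Figure D4:**
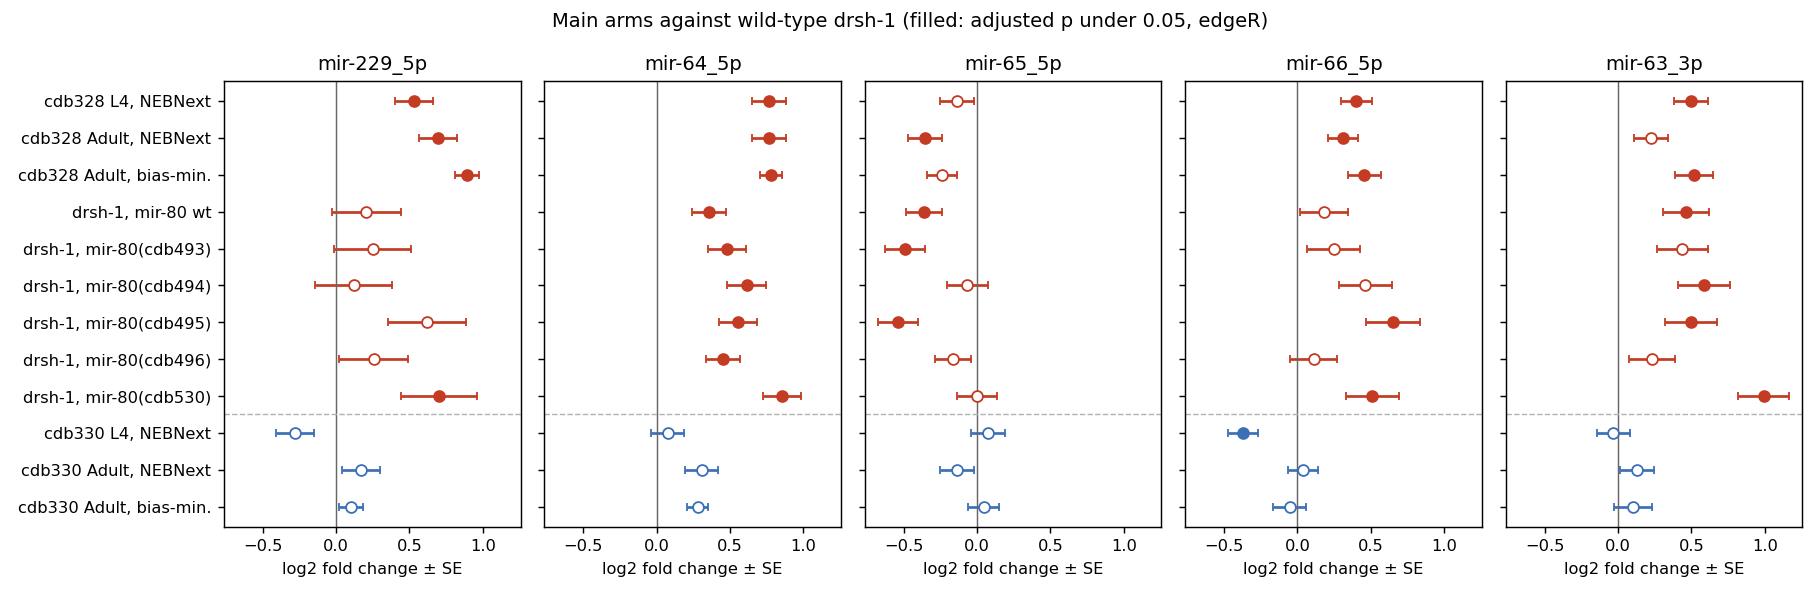
Log2 fold change ± SE (edgeR, TMM scale) of the 5 main arms over the 9 comparisons of a drsh-1 genotype carrying cdb328 with its control and the 3 of cdb330 with wild type; filled points have an adjusted p under 0.05. miR-64-5p is filled and above 0 in all 9 (0.36 to 0.85) and miR-65-5p is below 0 in all 9 (-0.54 to -0.0023), but above 0 in 3 of them with DESeq2; on the mir-62 scale 8 of the 9 values of miR-64-5p are below 0.

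In the mir-80 series, where each mutant was set against intact drsh-1 on the same mir-80 allele, the family moved less evenly. Over all 16 libraries of each kind, miR-64-5p ran from 20305 to 28514 CPM (median 22888) with intact drsh-1 and from 28315 to 48120 CPM (median 32816) with the mutant. miR-65-5p ran from 8719 to 14054 CPM (median 12303) and from 7749 to 12464 CPM (median 9687). The medians of the 2 neighbours thus parted in opposite directions, while the ranges over all backgrounds crossed for both arms, narrowly for miR-64-5p. On wild-type mir-80, miR-64-5p went from 22776, 21442 and 23495 to 28748, 29461 and 28528 CPM and rose by 0.36 ± 0.12 (edgeR adjusted p 0.0329). On the same background miR-65-5p went from 12359, 12247 and 11303 to 9192, 9242 and 9476 CPM and fell by 0.36 (-0.36 ± 0.12, adjusted p 0.0374). Neither pair of groups overlapped, but both calls were lost in 5 of the 6 fits that left out a library, all but the one without the third control (highest adjusted p 0.107 and 0.110), and DESeq2 did not call miR-65-5p (-0.28, adjusted p 0.108).

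Counts of called family arms on the other backgrounds were set against the share of all 207 arms. On wild-type mir-80 there were 2 higher and 1 lower (background 5.31% and 16.4%), on cdb493 1 and 1 (3.38% and 15%), and on cdb494 2 and 0 (3.38% and 16.4%). On cdb495 there were 4 and 1 (8.21% and 17.4%), on cdb496 1 and 0 (5.31% and 15%), and on cdb530 4 and 0 (13.5% and 17.9%). Where 0 were lower, none had an unadjusted p under 0.05 on cdb494 and cdb530 and DESeq2 called 0, while on cdb496 the star arm miR-229-3p did and was called by DESeq2. With the bias-minimized adaptors this arm stood at 208 to 473 CPM in 9 of the 41 libraries and at most at 6.25 CPM in the other 32. The arm present in each of these counts was miR-64-5p, with 0.48 ± 0.13 on cdb493, 0.61 ± 0.13 on cdb494, 0.56 ± 0.13 on cdb495, 0.45 ± 0.12 on cdb496 and 0.85 ± 0.13 on cdb530. miR-65-5p was lower on cdb493 (-0.49 ± 0.14, edgeR adjusted p 0.0126) and cdb495 (-0.54 ± 0.14, adjusted p 0.00417), while on cdb530 its estimate was -0.0023 (adjusted p 0.999). miR-63-3p had its largest change on cdb530 (0.99 ± 0.17, adjusted p 0.000151), where miR-229-5p (0.70 ± 0.26, adjusted p 0.0419) and miR-66-5p (0.51 ± 0.18, adjusted p 0.0343) were also higher. The last 2 calls were each lost in 3 of 5 fits without 1 library, the first control library or either mutant one (highest adjusted p 0.170 and 0.196).

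Single libraries also decided some of the other calls in this series. On cdb493, miR-64-5p was lost without the first mutant library (edgeR adjusted p 0.210), and miR-65-5p without the third control or the second mutant library (highest 0.147). On cdb494, miR-63-3p was higher by 0.58 ± 0.18 but was lost without the second mutant or either control library (highest 0.148). On cdb495, miR-63-3p (0.50 ± 0.18) was lost in 5 of 5 such fits, miR-63-5p (0.68 ± 0.25) in 3 and miR-66-5p (0.65 ± 0.18) in 2, whereas miR-64-5p and miR-65-5p were called in all 5. miR-64-5p was called in all such fits on cdb494, cdb495, cdb496 and cdb530.

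Whether the effect of the drsh-1 mutation on a family arm differed between a mir-80 allele and wild-type mir-80 was tested as an interaction in edgeR. With cdb530 the drsh-1 genotype differs too, being drsh-1(cdb328) there and drsh-1(cdb263 cdb328) on wild-type mir-80, so in that interaction the 2 changes cannot be told apart. The interaction was called for 0 of 10 arms with each of the 5 alleles. Few of all 207 arms were called either: 0% higher and 0.483% lower with cdb493, and 0.483% and 0% with cdb494. With cdb495 it was 1.45% and 0%, with cdb496 0% and 0.966%, and with cdb530 1.93% and 1.45%. Family arms at an unadjusted p under 0.05 numbered 1 with cdb493, 0 with cdb494, 0 with cdb495, 1 with cdb496 and 3 with cdb530. The last included miR-63-3p and miR-64-5p. DESeq2 called 1 arm with cdb496 and 1 with cdb530, in both cases the star arm miR-229-3p. The mir-80 alleles themselves, with intact drsh-1, changed 0 of 10 family arms in each case by edgeR. Background calls were 0% higher and 0.966% lower for cdb493, cdb494 and cdb496, 0% and 5.8% for cdb495, and 4.35% and 11.1% for cdb530. At an unadjusted p under 0.05 they had 0, 2, 1, 2 and 3 family arms in the order cdb493 to cdb496 and cdb530, all of them star arms, and DESeq2 called 0 except miR-229-3p with cdb530.

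The 9 comparisons together come from 3 fits and may include the same Adult RNA in 2 protocols. Over them miR-64-5p was called higher in 9 (0.36 to 0.85, median 0.61) without overlap in any. The share of all arms without overlap is not given here. Among the 175 arms tested in all 9, miR-64-5p was the only one called higher in all 9, while 17 were called lower in all 9. miR-63-3p was called higher in 6 (0.22 to 0.99, median 0.50), miR-66-5p in 5 (0.11 to 0.65, median 0.40), miR-229-5p in 4 (0.12 to 0.89, median 0.53) and the star arm miR-63-5p in 3 (0.11 to 0.68, median 0.42). Of the 175 arms, 4 were called higher in at least 6, 9 in at least 5, 18 in at least 4 and 34 in at least 3. miR-65-5p was called lower in 4, with a median of -0.24, and 35 of the 175 arms were called lower in at least 4. DESeq2 called miR-65-5p lower in 3 and gave positive estimates in 3 (up to 0.12). On total counts it was called lower in 2 and positive in 1. The sum of miR-64-5p and miR-65-5p was called higher in 4. On the spike-in scale miR-64-5p was positive in all 9 (0.02 to 0.64) but called in 2, and on the mir-62 scale it was positive in 1 and called higher in 0.

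For the other drsh-1 allele, cdb330, few family arms passed. At L4 the single call was miR-66-5p, which fell from 17711, 18911 and 19269 to 14042, 13218 and 15881 CPM (-0.37 ± 0.10, edgeR adjusted p 0.00608). edgeR called 0 family arms higher, with 0 at an unadjusted p under 0.05 and 0 by DESeq2, and 1 lower (background 6.22% and 25.8%); without the third cdb330 library 2 were lower. The groups did not overlap. The family median of -0.16 lay at that of all arms, -0.15, and the spike-in scale turned miR-66-5p to 0.44. The same libraries differed in embryo markers: 15 of the 16 arms of mir-35 to mir-42, miRNAs abundant in embryos, were lower (median -1.79), with a summed level of 10317 to 19040 CPM against 47262 to 67751 in wild-type L4, and none of the 16 was at 0. The part of this difference in the value of miR-66-5p was not tested. In cdb328 the same markers had 2 arms higher and 1 lower at L4, 1 and 4 in NEBNext Adults, and 6 lower in bias-minimized Adults.

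In cdb330 Adults, edgeR called 0 of 10 family arms with NEBNext (background 3.83% higher and 4.78% lower) and 0 of 10 with the bias-minimized adaptors (0% and 0.538%). At an unadjusted p under 0.05 there was 1 arm with NEBNext, miR-64-5p, and 2 with the bias-minimized adaptors, miR-64-5p and the star arm miR-229-3p. DESeq2 called 0 and 2, the latter being these same arms; miR-229-3p had 248, 274 and 2.26 CPM in wild type and 2.01, 0 and 4.90 CPM in cdb330, which overlapped. miR-64-5p stood apart from wild type in both: 35634, 38794 and 37444 CPM with NEBNext (0.31 ± 0.11, edgeR adjusted p 0.0951) and 29076, 28978 and 32190 CPM with the bias-minimized adaptors (0.28 ± 0.07, adjusted p 0.133). These misses of the threshold do not show that cdb330 left the arm as it was.

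Set directly against each other, the alleles differed on the TMM scale. Relative to cdb330, cdb328 had 6 family arms higher at L4 (background 36.4%), 4 in NEBNext Adults (18.7%) and 4 in bias-minimized Adults (16.7%). edgeR called 0 family arms lower in each (background 27.8%, 23.9% and 17.7%). At an unadjusted p under 0.05 there were 0 at L4 and 1 in NEBNext Adults, the star arm miR-65-3p. In bias-minimized Adults there was 1, miR-65-5p, which DESeq2 called. The log2 differences were 0.81, 0.53 and 0.79 for miR-229-5p and 0.69, 0.46 and 0.50 for miR-64-5p. At L4 miR-66-5p, which was lower in cdb330, differed by 0.77 and miR-63-3p by 0.53. These differences depend on scaling. Scaling on the spike-ins moved the median of all arms by -0.94 at L4, -0.21 in NEBNext Adults and -0.84 in bias-minimized Adults. Scaling on mir-62 moved it by -1.16, -1.09 and -0.69. At L4 and in bias-minimized Adults the spike-in shifts were larger than the differences given here. Of the 4 calls in bias-minimized Adults, that of miR-63-3p (0.42, edgeR adjusted p 0.0361) was lost with the replicate number as a block (adjusted p 0.0658) and in 6 of 6 fits without 1 library. In NEBNext Adults miR-66-5p (0.28) was lost in 4 of 6 such fits, and without the third cdb328 library 2 arms were left.

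Between the stages, the answer depended on scaling. On the TMM scale 6 of the 10 family arms were higher in wild-type Adults than at L4 (background 29.2%), led by miR-65-5p (0.69 ± 0.12, edgeR adjusted p 1.88e-05) and miR-63-3p (0.61, adjusted p 7.26e-05). miR-66-5p (0.48) and miR-64-5p (0.40) followed, and miR-229-5p had 0.16 (adjusted p 0.282). On total counts the family took the same 8.61% of miRNA reads at both stages, and miR-64-5p, miR-66-5p and miR-229-5p turned to -0.13, -0.043 and -0.36; on the spike-in scale all 5 main arms were negative, from -0.59 to -0.038. The embryo markers were higher in Adults in 16 of 16 arms (median 1.87), from 47262 to 67751 CPM at L4 to 195821 to 233674 CPM in Adults, and the part of this shift in the family's values was not tested. What did not depend on scaling was the balance of neighbours: the ratio of miR-64-5p to miR-65-5p went from a mean of 0.971 at L4 to 0.793 in Adults in wild type, a log2 difference of -0.29, without overlap. In cdb328 and in cdb330 the ratios at L4 and in Adults overlapped, and in cdb330 the highest ones were those of Adults.

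The same comparison in the mutants gave 6 higher arms in cdb328 (background 23.9%) and 7 in cdb330 (38.8%) on the TMM scale; on total counts these became 0 called in cdb328 and 2 lower in cdb330. In cdb330 the largest rises were those of miR-66-5p (0.89) and miR-63-3p (0.77). The difference of the stage effect between cdb330 and wild type was called for miR-66-5p (0.41 ± 0.15, edgeR adjusted p 0.0438; 1 of 10 arms higher, background 18.7%). That call was lost in 10 of the 12 fits that left out a library (highest adjusted p 0.0953), and stayed without the third cdb330 library of either stage. DESeq2 did not make it either, and on the spike-in and mir-62 scales the value turned to -0.34 and -0.30. For cdb328 the difference was called for 0 of 10 arms by edgeR (background 0.478% higher and 0% lower), with 0 at an unadjusted p under 0.05 and 0 by DESeq2.

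On the TMM scale the tagged strain had both arms of mir-229 lower than wild-type Adults, where 20.5% of all arms were lower. miR-229-5p had 1909 and 1757 CPM against 2276, 2931 and 2894 (-0.56 ± 0.14, edgeR adjusted p 0.00312), and its star arm miR-229-3p had 663 and 632 CPM against 1007, 1011 and 928 (-0.60 ± 0.13, adjusted p 0.000961). Neither pair of groups overlapped. With the star arm miR-66-3p (5.09 and 4.34 CPM against 7.63, 9.18 and 11.3; -0.98 ± 0.34, adjusted p 0.0299), 3 of the 10 arms were lower (background 20.5%). Scaling on the spike-ins moved the median of all arms by 2.05 and scaling on mir-62 by 1.08, and each turned all 3 positive. Without the second tagged library, miR-229-5p (adjusted p 0.0590) and miR-66-3p (0.177) were lost. The tagged strain over the null allele, set against the tagged strain, had 0 of 10 family arms changed by edgeR (background 0% higher and 0.465% lower). There was 1 at an unadjusted p under 0.05, the star arm miR-66-3p, and 0 by DESeq2. The label keeps the tagged drsh-1, so this is not a test of worms without drsh-1.

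The star arms were minor in most hairpins. With NEBNext the main arms of mir-64, mir-65 and mir-66 held over 99.9% of their hairpin's reads, miR-63-3p held 88.1% to 91.6%, and miR-229-5p 69.3% to 83.2%, with miR-229-3p at 535 to 1182 CPM. The log2 ratio of the arms, tested with limma over 74 hairpins, was changed in cdb328 in 0 family hairpins at L4 (background 39.2%), in 1 in NEBNext Adults (25.7%) and in 0 in bias-minimized Adults (17.6%). The single call was mir-66 (0.98 ± 0.32, adjusted p 0.0266), which rests on a star arm of about 9.37 CPM and was lost without the second or the third library of either group. At an unadjusted p under 0.05 there was 1 family hairpin at L4, mir-64 (0.99, adjusted p 0.0812), and 0 in bias-minimized Adults. At L4 1 hairpin passed without the third library of either group. mir-65 had too few star reads to test with NEBNext. With the bias-minimized adaptors miR-64-3p and miR-65-3p stood at 78.1 to 249 and 191 to 230 CPM in the same 6 of 41 libraries, all of replicate number 2, and at most at 6.25 and 4.70 CPM in the other 35. With the replicate number as a block, which the bias-minimized Adults allow, the star arm miR-64-3p was called lower in cdb328 (-1.60, edgeR adjusted p 0.0357, against 0.684 without it); values of these arms that follow a replicate number are not read as an effect of genotype.

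Beside other clusters, the spread within the miR-64 cluster was moderate. The gap between its highest and lowest main arm in cdb328 was 0.90 at L4, 1.12 in NEBNext Adults and 1.13 in bias-minimized Adults (log2). In the cluster of mir-48 and mir-241, relatives of let-7 that act in larval timing, it was 3.86, 3.89 and 4.23, and in mir-54 to mir-56 it was 4.57, 3.95 and 3.20. mir-73 and mir-74 had 1.72, 2.07 and 2.06, while mir-61 and mir-250 had 0.17, 0.29 and 0.39. mir-42 to mir-44 had 0.37, 1.86 and 0.99. Smaller in all 3 than in the miR-64 cluster were those of mir-35 to mir-41 (0.35, 0.88 and 0.71) and of mir-240 and mir-786 (0.62, 0.047 and 0.98). In mir-48 and mir-241 the lowest member was miR-241-5p, which fell by 3.60 at L4. An arm called higher at the top of its cluster was not particular to the miR-64 cluster: on the TMM scale miR-55-3p was called higher in all 3 (0.36, 0.36 and 0.40), as was miR-44-3p (0.33, 0.57 and 0.23). Of all arms of the other clusters, 6 were higher and 12 lower of 41 at L4, 3 and 16 of 41 in NEBNext Adults, and 4 and 18 of 42 in bias-minimized Adults.

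Other miRNAs known from work on heat stress are given beside the family, with no test of a difference between the lists. Of the arms of mir-71, mir-80, mir-239a and mir-239b, 1 was higher and 4 lower of 7 at L4, 1 and 3 of 7 in NEBNext Adults, and 4 and 2 of 8 in bias-minimized Adults. The median log2 fold changes were -0.46, 0.011 and 0.34, against 0.34, 0.14 and 0.26 for the family. miR-71-5p, which promotes long life in worms, changed by -4.71, -5.23 and -4.87. miR-80-3p, of the bantam-like family, was called higher in all 3, by 0.37 at L4, 0.65 in NEBNext Adults and 0.38 in bias-minimized Adults.

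Among arms of other hairpins with at least 100 CPM, those whose log2(CPM + 1) most resembled miR-64-5p over the 22 NEBNext libraries were miR-1820-5p (Pearson r 0.91), miR-1822-3p (0.87), miR-80-3p (0.85), miR-55-3p (0.82) and miR-246-3p (0.81), of 102 compared. Within the family r with miR-64-5p was 0.85 for miR-63-3p, 0.84 for miR-66-5p, 0.73 for miR-229-5p and 0.25 for miR-65-5p. Over the 41 bias-minimized libraries, where miR-66-5p was the leading arm, the nearest of 120 were miR-55-3p (0.78), miR-36-3p (0.70), miR-238-3p (0.67), miR-40-3p (0.66) and miR-1822-3p (0.60), and within the family miR-63-3p had 0.83, miR-64-5p 0.81, miR-229-5p 0.70 and miR-65-5p -0.077. By Spearman's rho the 5 nearest miR-64-5p with NEBNext were the same arms, while those nearest miR-66-5p kept miR-55-3p (0.79) and miR-36-3p (0.72) and had miR-45-3p (0.71), miR-44-3p (0.70) and miR-61-3p (0.66) in place of the other 3. With the bias-minimized adaptors miR-45-3p, miR-44-3p and miR-61-3p each had CPM over 15-fold apart within at least 2 groups. In both sets miR-65-5p was the family's main arm least like the leading one. These libraries share genotypes, stages and normalization, so the values describe likeness in these libraries and carry no test.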

How the data were processed

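Small RNA of whole worms was counted per miRNA arm in 63 libraries. The labels name the NEBNext kit or adaptors with degenerate bases; HTSeq counted the reads, per the submitters' processing notes (aligner, genome build, version, miRNA annotation, read filters and spike-in amount: not given in the sources used here). Both deposited tables hold reads per arm; 292 NEBNext and 166 bias-minimized values lay midway between whole numbers (38 of them in the family, in mir-63 and mir-66), so the values deposited by the authors were handled as estimated counts of reads and rounded here. Groups came from the labels. Members, lists, comparisons and tests were chosen with earlier results of these data known. All 10 family arms were described; other miRNAs were named by likeness to the family arm of highest CPM (up to 5 per table, at least 100 CPM), by a list (heat stress miRNAs, other clustered miRNAs, the mirtron mir-62, and embryo, neuron, muscle and intestine markers; up to 4 with the smallest p), or where a result turned on them.

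Tests used edgeR 4.0.16 in R 4.3.3 (filterByExpr with a minimum count of 10 and a minimum total of 15, TMM over each whole table without spike-ins, glmQLFit and glmQLFTest, Benjamini-Hochberg over all arms). Fits covered 18 NEBNext libraries (209 arms), all 22 for the tagged strains (215), 9 bias-minimized Adults (186) and the 32 of the mir-80 series (207). Levels of both tables are TMM-normalized CPM. Arm ratios were tested with limma 3.58.1 on log2((5p + 0.5)/(3p + 0.5)) where both arms averaged at least 10 reads. Both scripts were tested on simulated data.

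Alternatives were DESeq2 1.42.0, its size factors in edgeR, total counts, the 10 spike-ins, mir-62, TMM within each fit, no filter, only the groups compared, the replicate block, each library left out in turn, no wide-range arms (CPM over 15-fold apart within at least 2 groups, the higher over 300), miR-64-5p and miR-65-5p summed, floor in place of rounding, an arm-ratio offset of 5 and a minimum of 50 reads, and Spearman likeness. In the 9 bias-minimized Adults same-numbered libraries deviated together (correlations 0.109 to 0.81, median 0.61, from the data and not the labels), so their numbers were taken to pair the libraries; with NEBNext (median 0.00875) and in the mir-80 series (median -0.0146) they were not. No sequences are printed.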

Additional observations from a re-analysis of the deposited data

Results flagged for a closer look

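The change of miR-66-5p from L4 to Adult differed between cdb330 and wild type, by 0.41 on the log2 scale (edgeR's quasi-likelihood test, adjusted p 0.0438). It was picked out because the stage effect differed between these groups by a test of the difference itself. The call was lost with DESeq2, with its size factors, with TMM within the fit, with the replicate block, without a filter, with only the groups compared, on total counts (0.16), and in 10 of the 12 fits that left out a library. On the spike-in and mir-62 scales the value turned to -0.34 and -0.30, without a call. The arm had 17711, 18911 and 19269 CPM in wild-type L4, 14042, 13218 and 15881 CPM in cdb330 L4, 25537, 26558 and 25948 CPM in wild-type Adults and 27859, 27720 and 24435 CPM in cdb330 Adults. The Adults overlapped and the L4 worms did not. Summed embryo markers were 10317 to 19040 CPM in cdb330 L4 and 47262 to 67751 CPM in wild-type L4, and in Adults 188390 to 204388 and 195821 to 233674 CPM; their part in the difference was not tested.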

How the results depend on the processing

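Counts here are family arms called, and each is followed by its value under the main settings in parentheses; the names cdb493 to cdb496 and cdb530 stand for the drsh-1 mutant against intact drsh-1 on that mir-80 allele. Floor in place of rounding and leaving out wide-range arms changed no direction and no call in any comparison, and a minimum of 50 reads kept the 3 arm-ratio counts. The cause of the changes below was not tested, beyond the fewer arms or libraries that some alternatives use by construction. With the bias-minimized adaptors the star arms of mir-64, mir-65 and mir-229, high in a few libraries only, are left out of these counts. Low read numbers limit the star arms of mir-64, mir-65 and mir-66 with NEBNext.

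With DESeq2's test the bias-minimized cdb330 count became 1 (0) and the stage interaction of cdb330 0 (1). With DESeq2's size factors in edgeR, bias-minimized cdb330 had 1 (0), cdb330 at L4 0 (1) and the interaction 0 (1). With TMM within each fit, bias-minimized cdb330 had 1 (0) and the interaction 0 (1). The replicate block took the interaction to 0 (1); for the pairing of the bias-minimized Adults its effect is given with those results, and it changed the side of the threshold of no other family arm. Summing miR-64-5p and miR-65-5p gave 2 (4) in NEBNext cdb328 Adults, 0 (2) on cdb493, 3 (5) on cdb495, 0 (1) on cdb496 and 1 (3) on wild-type mir-80. Without a filter there were 3 (5) on cdb495, 2 (4) on cdb530, 0 (3) on wild-type mir-80 and 0 (1) for the interaction. With only the groups compared there were 0 (2) on cdb493, 0 (2) on cdb494, 0 (1) on cdb496, 2 (4) on cdb530 and 0 (1) for the interaction. With an offset of 5 the arm-ratio count at L4 was 1 (0).

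Scaling mattered most. On total counts the Adult against L4 counts were 1 (6) in wild type, 0 (6) in cdb328 and 2 (7) in cdb330; bias-minimized cdb330 had 1 (0), cdb330 at L4 2 (1), cdb493 1 (2), cdb495 1 (5), cdb496 0 (1), cdb530 2 (4) and wild-type mir-80 0 (3). In wild-type Adults against L4 miR-229-5p turned to -0.36, the star arm miR-63-5p to -0.0050, miR-64-5p to -0.13 and miR-66-5p to -0.043.

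On the spike-in scale the wild-type stage count was 2 (6), bias-minimized cdb328 2 (5), cdb328 at L4 1 (5), cdb328 against cdb330 in NEBNext Adults 2 (4), bias-minimized cdb330 1 (0), cdb330 at L4 7 (1), the interaction 3 (1), the tagged strain 10 (3) and the null allele over it 5 (0). In the mir-80 series it was 0 on each background: cdb493 (2), cdb494 (2), cdb495 (5), cdb496 (1), cdb530 (4) and wild-type mir-80 (3). In the wild-type stage comparison the arms turned to -0.19 (miR-229-3p), -0.59 (miR-229-5p), -0.14 (miR-63-3p), -0.20 (miR-63-5p), -0.34 (miR-64-5p), -0.038 (miR-65-5p) and -0.27 (miR-66-5p). miR-66-5p turned to -0.031 in bias-minimized cdb328 and -0.067 on cdb530. In cdb330 at L4 miR-229-5p turned to 0.55, miR-63-3p to 0.78 and miR-66-5p to 0.44. In the stage interaction of cdb330 miR-66-5p turned to -0.34. In the tagged strain miR-229-3p turned to 1.45, miR-229-5p to 1.51, miR-63-3p to 1.96, miR-66-3p to 1.07 and miR-66-5p to 1.89.

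On the mir-62 scale the counts were 0 (6) and 4 (7) for the stages in cdb328 and cdb330, 10 (4) in NEBNext cdb328 Adults, 9 (5) at L4, 10 (4) for cdb328 against cdb330 in NEBNext Adults, 2 (0) in NEBNext cdb330 Adults, 0 (1) in cdb330 at L4, 1 (2) on cdb494, 2 (5) on cdb495, 3 (1) on cdb496, 0 (4) on cdb530, 4 (0) for mir-80(cdb530) with intact drsh-1, 4 (0) and 2 (1) for the stage interactions of cdb328 and cdb330, and 7 (3) for the tagged strain. In bias-minimized cdb328 the values turned to -0.036 (miR-229-5p), -0.40 (miR-63-3p), -0.25 (miR-63-5p), -0.15 (miR-64-5p) and -0.47 (miR-66-5p). In NEBNext cdb328 Adults they turned to -0.87 (miR-229-5p), -1.37 (miR-63-3p), -0.81 (miR-64-5p) and -1.28 (miR-66-5p). At L4 they turned to -0.43 (miR-229-5p), -0.47 (miR-63-3p), -0.53 (miR-63-5p), -0.19 (miR-64-5p) and -0.56 (miR-66-5p). In the mir-80 series miR-64-5p turned to -0.30 on cdb493, -0.039 on cdb494, -0.26 on cdb495, -0.49 on cdb496 and -0.33 on wild-type mir-80, miR-63-3p to -0.047 on cdb494, -0.32 on cdb495 and -0.21 on wild-type mir-80, miR-63-5p to -0.13 on cdb495, and miR-66-5p to -0.16 on cdb495 and -0.040 on cdb530. In the stage interaction of cdb330 miR-66-5p turned to -0.30. In the tagged strain miR-229-3p turned to 0.46, miR-229-5p to 0.54, miR-63-3p to 0.97, miR-66-3p to 0.12 and miR-66-5p to 0.90.

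Leaving out each library in turn gave counts of 1 to 3 (3) for the tagged strain, 0 to 2 (1) for the interaction of cdb330, 2 to 4 (4) for cdb328 against cdb330 in NEBNext Adults, 1 to 2 (1) for cdb330 at L4, 1 to 2 (2) on cdb493, 1 to 2 (2) on cdb494, 2 to 4 (5) on cdb495, 2 to 4 (4) on cdb530 and 0 to 2 (3) on wild-type mir-80. For the arm ratio in cdb328 it gave 0 to 1 in NEBNext Adults and 0 to 1 at L4. Of the calls of miR-64-5p over the 9 comparisons, 44 of 50 such fits held them. By Spearman's rho 5 of the 5 arms nearest miR-64-5p and 2 of the 5 nearest miR-66-5p were the same.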
